A study of Gallus gallus with 4 samples.

Results

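TENM2 and TGFB2 each have 1 probe with a RefSeq accession on a chicken Agilent array, so 2 of its 42034 probes that are not control spots are described here. The probes were found by the RefSeq accession on the array, NM_204097 for TENM2 and NM_001031045 for TGFB2. Most probes carry identifiers with no symbol here, so further probes may read these genes under other names. The genes themselves were chosen by their measured difference between the lines: of the 22 genes with a symbol that were well above background on all 4 arrays, they stood highest in the line expressing OsTIR1 relative to parental DT40. That difference is therefore given as a description, without a test.

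DT40 is a B lymphoma cell line from the chicken bursa. The groups were parental DT40 left as a control, parental DT40 with 500 µM indole-3-acetic acid (IAA, the natural auxin, added from an ethanol stock), a stable DT40 line expressing OsTIR1 left as a control, and that line with 500 µM IAA. OsTIR1 is the rice F-box protein that recognises auxin in plants. All cultures grew at 38.5 °C with 10% fetal calf serum and 1% chicken serum and were harvested at 6 h, and what the controls received, the promoter of OsTIR1 and whether the stable line is a single clone are not given in the sources used here. Each group is 1 culture on 1 array, so there are no replicates: a difference between the lines and a difference between these particular cultures cannot be told apart. The study asked whether auxin acts on the genes of animal cells.

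TENM2 encodes teneurin-2, a large transmembrane protein whose extracellular part carries EGF-like repeats and a long stretch of tyrosine-aspartate repeats. Teneurins bind latrophilins, which are adhesion receptors on the opposite cell, and are best known from the developing nervous system, where they act in target recognition and synapse formation. TGFB2 encodes transforming growth factor beta 2, a cytokine secreted as a latent complex. Once released it binds a receptor pair of serine/threonine kinases with the help of the co-receptor betaglycan, and SMAD proteins carry the signal to the nucleus. In lymphocytes TGF-beta signalling is known for restraining proliferation.

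The 4 arrays belong to 1 slide and were scanned on 1 day, and they measured between 47.8% and 58.0% of the probes well above background, more in the OsTIR1 line. The lowest intensity so flagged was 14.3 units for the untreated and 10.4 for the IAA-treated parental culture, against 5.71 and 6.12 for the corresponding OsTIR1 cultures. The median signal of the 153 negative control spots was 39.0 untreated and 30.5 with IAA on the parental arrays. On the OsTIR1 arrays it was 25.5 and 23.0. Whether more genes were expressed in the OsTIR1 line was not tested. No spot was saturated. The cell type could not be checked from its markers: of 21 B cell genes listed for this purpose, RAG1 alone has a named probe, and it was not well above background on any array. TLR4, the single macrophage marker of 4 with a named probe, was not either, and none of the 19 T cell, stromal, neuronal and erythroid markers has one.

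TENM2 was brighter on both arrays of the OsTIR1 line than on either parental array. Its processed intensity, with background subtracted and the array detrended, was 246 units in the untreated parental culture and 203 after IAA. The OsTIR1 cultures gave 963 units untreated and 906 after IAA. The dimmer OsTIR1 array stood 3.68-fold above the brighter parental one before scaling. TENM2 was chosen for this contrast, so the order of its arrays supports nothing, and how many probes share it was not counted. Its smallest margin was on the untreated parental array, at 17.2 times the lowest intensity flagged well above background there.

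Scaled to each array's own 75th percentile, the log2 level of TENM2 was 0.48 for untreated and 0.28 for IAA-treated parental cells, against 2.49 for untreated and 2.43 for IAA-treated OsTIR1 cells. The OsTIR1 line was thus 2.01 higher without IAA (nominal 95% interval 1.61 to 2.41), a 4.02-fold difference (3.05 to 5.31). With IAA it was 2.16 higher (1.75 to 2.56), or 4.46-fold (3.37 to 5.88). The interval comes from the scanner software's error of the 2 spots and holds no spread between cultures. In RNA from a whole culture, fewer expressing cells and less RNA per cell cannot be told apart.

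TGFB2 had the same order of arrays with a smaller step between the lines. Its intensity was 238 units in the untreated parental culture and 193 after IAA, against 438 units in the untreated OsTIR1 culture and 368 after IAA. The dimmer OsTIR1 array was 1.54-fold above the brighter parental one, in a gene chosen for the same contrast. That order likewise supports nothing, and how many probes share it was not counted. On every array the probe was at least 16.6 times the lowest intensity flagged well above background.

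The log2 level of TGFB2 was 0.43 for untreated and 0.20 for IAA-treated parental cells, against 1.35 for untreated and 1.13 for IAA-treated OsTIR1 cells. The line difference was 0.92 without IAA (0.52 to 1.32) and 0.93 with IAA (0.53 to 1.33). As folds these are 1.89 (1.43 to 2.50) and 1.90 (1.44 to 2.51). With this scaling TGFB2 thus lay just under a 2-fold difference in both comparisons and TENM2 well over it. The step of TENM2 exceeded that of TGFB2 by 1.09 on the log2 scale without IAA (0.52 to 1.66) and by 1.23 with IAA (0.66 to 1.80). These intervals hold no spread between cultures, and the genes were chosen for this contrast, so the comparison is a description without a test.

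**Figure D1:**
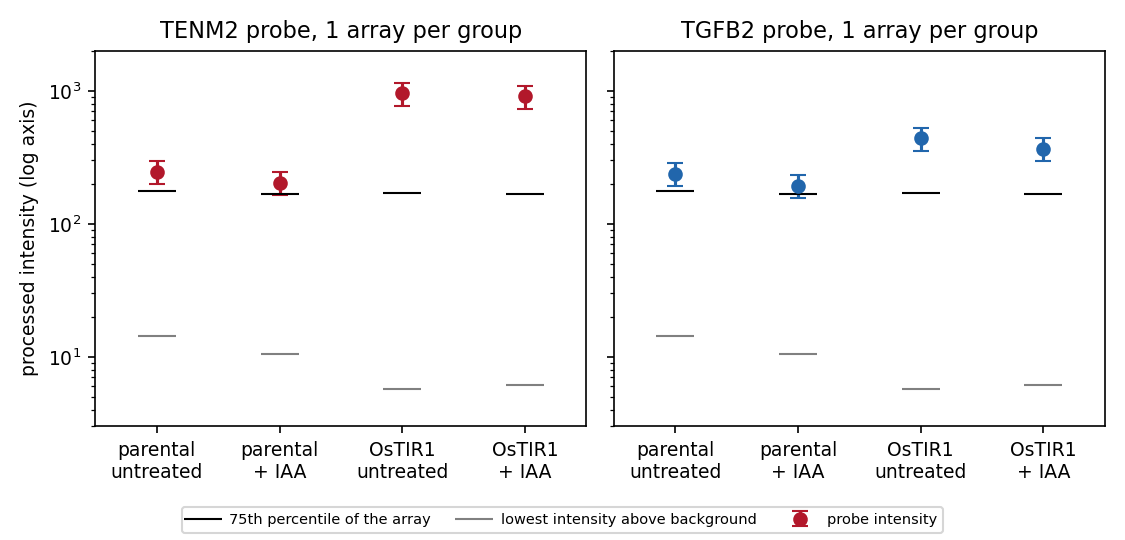
Processed intensity (log axis) of the TENM2 probe (left) and the TGFB2 probe (right) on the 4 arrays, 1 array per group. Bars are 1.96 times the scanner software's error on either side, black ticks the 75th percentile of each array and grey ticks the lowest intensity flagged well above background; both probes lie higher on the OsTIR1 arrays, TENM2 at 963 and 906 units against 246 and 203.

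The software's error was between 10.0% and 10.1% of the intensity for both probes on every array, which sets the half-width of 0.40 of each interval. A measured spread was available from the spike-in probe nearest in level, with a mean level of 1.15. Its 32 spots on an array had an SD of 0.04 to 0.07 on the log2 scale, and its means differed by at most 0.03 between the arrays compared. Spike-in RNA is added to each sample, so this spread holds no variation between cultures either.

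Neither probe lay in the parts of the untreated parental array with the largest shares of probes flagged above background on that array alone. With the surface divided into 16 parts, the share of probes above background there among those below it on every other array was 0.283% in the part of TENM2 and 1.89% in that of TGFB2, the third highest. The highest shares were 11.8% and 11.2%. These shares concern the untreated parental array alone, and whether the array surface affected the line differences was not tested. Among the probes within 10 rows and 5 columns of TENM2, 112 were measured without IAA and had a median line difference of -0.01, with 1 of them at least 2-fold higher in the OsTIR1 line. With IAA the median was 0.08 over 114 probes. Around TGFB2 the medians were 0.01 over 102 probes and 0.06 over 106. For IAA in parental DT40 the medians were -0.04 over 110 probes around TENM2 and -0.03 over 101 around TGFB2. In the OsTIR1 line they were 0.01 over 130 and 0.03 over 124.

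The other genes with a symbol had smaller mean line differences, although CHRM4, a muscarinic acetylcholine receptor gene, was at -0.95 without IAA and at -0.04 with it. Of the 20 others, 11 were higher in the OsTIR1 line in both comparisons, 7 were lower in both and 2 changed sign, and their median line difference was 0.07. Next below TGFB2 came PDCD2 at 0.54 in each comparison, a gene first described in programmed cell death. Then came MC1R, the melanocortin receptor gene of pigment cells, at 0.49 without and 0.22 with IAA. MC1R was dim, at a log2 level of -3.15 in untreated parental cells, where the lowest level flagged above background was -3.62. LPIN2, a phosphatidate phosphatase gene of lipid synthesis, followed at 0.32 and 0.27.

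**Figure D2:**
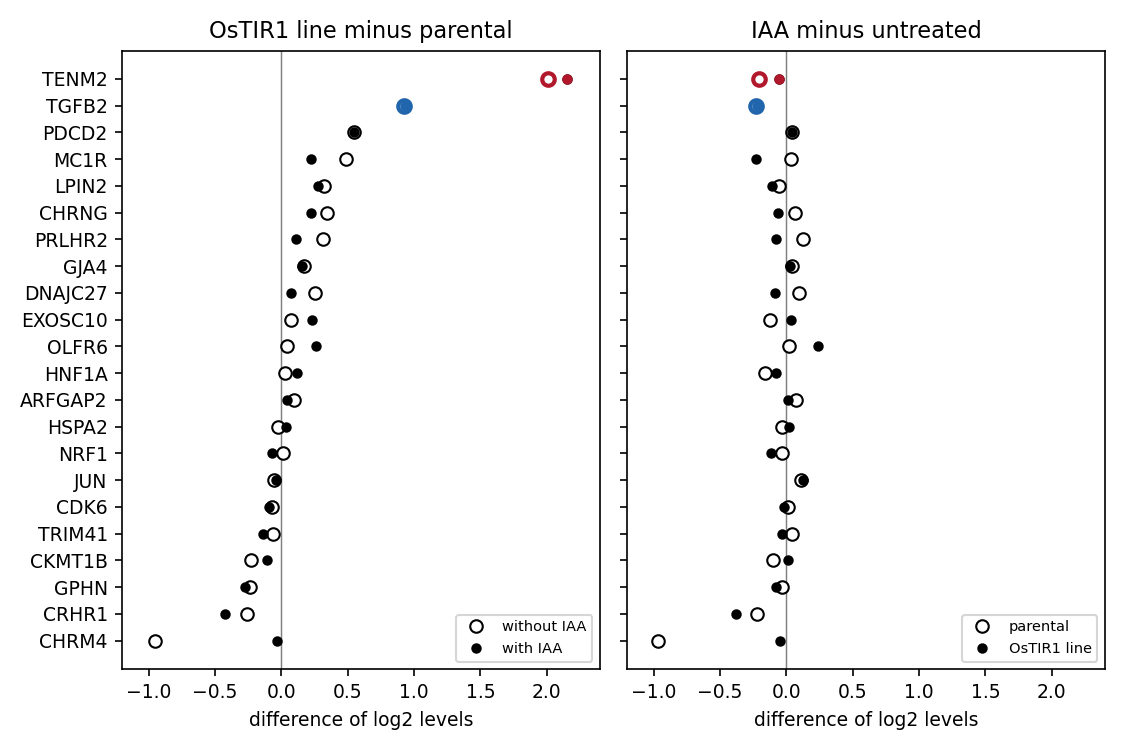
Differences of log2 levels for the 22 named genes above background on all 4 arrays, ordered by their mean line difference. The left panel gives the OsTIR1 line minus parental DT40 without (open) and with IAA (filled), the right panel IAA minus untreated in parental DT40 (open) and the OsTIR1 line (filled); TENM2 (red) and TGFB2 (blue) lead the left panel and lie at or below 0 in the right one.

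Over all probes, differences of the size of TENM2 were rare and those of the size of TGFB2 less so. Without IAA, 105 of 19709 probes above background on both arrays were at least 2-fold higher in the OsTIR1 line (0.533%), and with IAA 106 of 20604 (0.514%). In both comparisons together it was 55 of 19436 (0.283%), and TENM2 is the single one of the 55 with a symbol. At 1.5-fold it was 215 (1.11%), both genes among them. Since the genes were chosen for this contrast, these shares place them and support nothing.

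Counting itself, TENM2 was among 6 probes at least as far up without IAA and among 5 with IAA, and 4 probes were as far up in both. TGFB2 was among 132 and 138 probes (0.670% of those measured in each comparison), and 77 were as far up in both. Ranked by the mean of both comparisons, TENM2 stood at place 5 and TGFB2 at place 104 of 19436. The median line difference of these 19436 probes was 0.01 in each comparison.

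**Figure D3:**
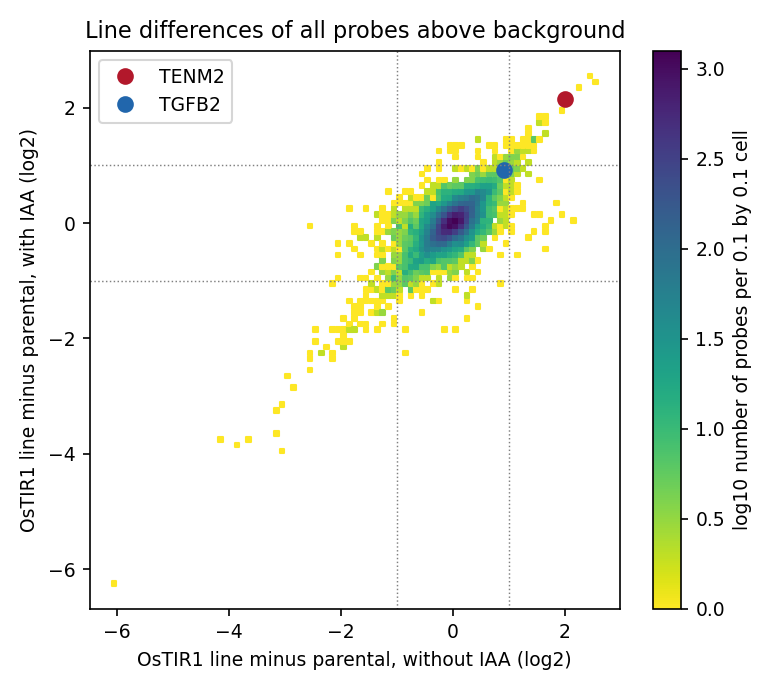
Line difference with IAA against line difference without IAA (log2) for the 19436 probes above background on all 4 arrays, coloured by the number of probes per cell, with dotted lines at 2-fold. TENM2 lies at 2.01 and 2.16 near the upper end, and TGFB2 at 0.92 and 0.93 just inside the 2-fold lines.

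Probes of like brightness give a measured scale for these differences. Within 0.5 of the mean level of TENM2 there were 1939 probes on all 4 arrays, and 95% of them lay between -0.45 and 0.49 for the line without IAA and between -0.45 and 0.48 with IAA. TENM2 was 1 of 2 that reached its own difference in both comparisons. Within 0.5 of TGFB2 there were 2093 probes, and 95% lay between -0.48 and 0.51 without IAA and between -0.50 and 0.51 with it. TGFB2 was 1 of 4 as far up in both. Both genes were chosen for this contrast, so these counts also place them and support nothing.

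With IAA neither gene was 1.5-fold from its untreated level in either line. The IAA difference of TENM2 was -0.21 in parental DT40 (-0.61 to 0.20) and -0.06 in the OsTIR1 line (-0.46 to 0.34), and with median scaling these were -0.04 and 0.04. For TGFB2, a regulator of growth and differentiation in many tissues, it was -0.23 in parental DT40 (-0.63 to 0.17) and -0.22 in the OsTIR1 line (-0.62 to 0.18), or -0.07 and -0.12 with median scaling. All 4 intervals include 0, and at a half-width of 0.40 none could exclude it for differences of this size. The reference of median scaling was itself dim in untreated parental DT40. There the median intensity was 14.9 units, and the lowest flagged well above background was 14.3. With quantile normalization the IAA differences in parental DT40 and the OsTIR1 line were -0.20 and -0.07 for TENM2. For TGFB2 they were -0.23 and -0.22. A 1.5-fold difference with IAA in either direction was found for 1.91% of 19492 probes in parental DT40 and for 2.19% of 22873 in the OsTIR1 line.

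The IAA effect was tested over both lines with an additive limma model, in which each line serves as a repeat of the treatment and 1 residual degree of freedom is left. It gave TENM2 an effect of -0.13 ± 0.08 (SE; adjusted p 0.955), which was 0.00 with median scaling. TGFB2 had an effect of -0.23 ± 0.07 (SE; limma unadjusted p 0.0460, adjusted p 0.955), and with median scaling one of -0.09 (limma unadjusted p 0.300). TGFB2 was lower with IAA in 2 of 2 lines, as were 8 of the 22 named genes, TENM2 and TGFB2 included. How many of all probes were lower in both lines was not counted. Neither gene passed the threshold, and neither did any other of the 23100 probes (0 called, 0%). Limma's unadjusted p was under 0.05 for 1125 of them, close to the share that a cut at 0.05 gives without any effect. With median scaling it was under 0.05 for 1839 of them, above that share, and with quantile normalization for 1085. With 1 residual degree of freedom, 0 called does not show that IAA had no effect.

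Set beside probes of like brightness, the IAA differences of TENM2 lay inside the central 95%, which ran from -0.21 to 0.21 in parental DT40 and from -0.21 to 0.22 in the OsTIR1 line. The parental value was close to the lower edge: 54 of the 1939 probes were at least as low there, and 18 in both lines, TENM2 included. The IAA differences of TGFB2 lay inside the central 95% as well, close to its lower edge in both lines, at -0.25 to 0.21 and -0.23 to 0.22. In parental DT40 65 of the 2093 probes were at least as low as TGFB2, in the OsTIR1 line 57, and in both lines 4, TGFB2 included. These counts were made after the values were seen.

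**Figure D4:**
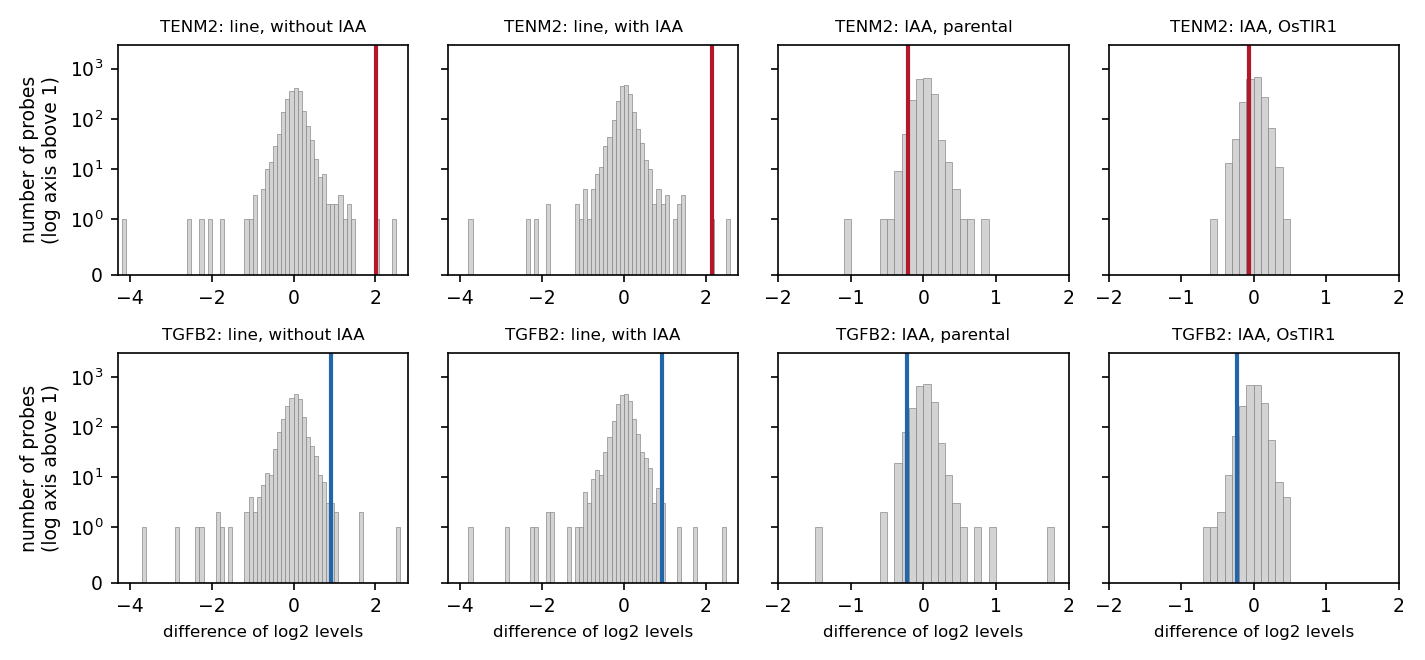
Number of probes (log axis above 1) by difference of log2 levels, for probes within 0.5 of the mean level of TENM2 (upper row, 1939 probes) and TGFB2 (lower row, 2093 probes), with the gene's own difference as a coloured line. The lines lie far to the right for the line comparisons, for which the genes were chosen, at 2.01 and 2.16 and at 0.92 and 0.93. For IAA they lie inside the central 95%, close to its lower edge for TENM2 in parental DT40 and for TGFB2 in both lines.

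Whether IAA moved the genes differently in the lines is the difference of the IAA differences. It was 0.15 for TENM2 (-0.42 to 0.71) and 0.01 for TGFB2 (-0.56 to 0.58). With 1 array per group this value has no test, and both nominal intervals include 0.

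The patterns most like TENM2 and TGFB2 over the 4 arrays were found from the distance between log2 levels centred on their own mean, where 0 means the same profile. Among named genes the nearest to TENM2 were TGFB2 at 1.16, PDCD2 at 1.55 and MC1R at 1.74, with 93 probes of the array nearer to it than TGFB2. The nearest to TGFB2 were PDCD2 at 0.464, MC1R at 0.599 and LPIN2 at 0.644. With 4 arrays that differ mainly by line, this distance follows the size of the line difference.

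Closer profiles were found among probes without a symbol here. The nearest to TENM2 was the probe carrying the sequence identifier AJ720776, at a distance of 0.181, with levels of 1.24 and 1.23 on the parental arrays and 3.21 on each OsTIR1 array. Its IAA differences were 0.00 in both lines. The nearest to TGFB2 was the cluster identifier TC204332 at 0.0654, with line differences of 0.93 and 0.96 and IAA differences of -0.18 in parental DT40 and -0.15 in the OsTIR1 line. What these probes read is not named in the tables used here.

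The rest of the teneurin and TGF-beta pathways could hardly be followed. Of 15 teneurins, latrophilins and their partners, TENM2 is the one with a named probe. Of 24 ligands of the TGF-beta superfamily, TGFB2 and INHA, the inhibin alpha subunit gene, have one, and INHA was not well above background on any array. None of 14 receptors or 19 mediators such as the SMADs has a named probe. Of 21 genes listed as targets of the pathway, JUN alone has one, and its line differences were -0.05 without IAA and -0.04 with IAA. JUN is also induced by many other signals.

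TENM2 is annotated with 2 curated and 22 predicted mRNA models in RefSeq, and the probe carries the accession of one of the curated ones. Which other models the probe also reads was not analysed here. TGFB2 has 1 curated mRNA. The protein-coding neighbours of TENM2 in the chicken assembly GRCg7b are WWC1 and MAT2B, and those of TGFB2 are LYPLAL1 and RRP15. None of these 4 has a named probe, so whether neighbouring genes differed between the lines was not tested.

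The line difference kept its direction in other processing, and its size moved by less than the half-width of its interval. Both genes were chosen for this contrast on these same arrays, so this stability describes the processing and supports nothing about the lines. Over 8 alternatives TENM2 ranged from 1.76 to 2.11 without IAA and from 1.94 to 2.20 with IAA. TGFB2 ranged from 0.73 to 1.03 and from 0.71 to 0.97. The value of 1.03 came with median scaling and lies just over 2-fold. Normexp background correction with quantile normalization, which adds an offset to every spot, gave the low end of each range.

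**Figure D5:**
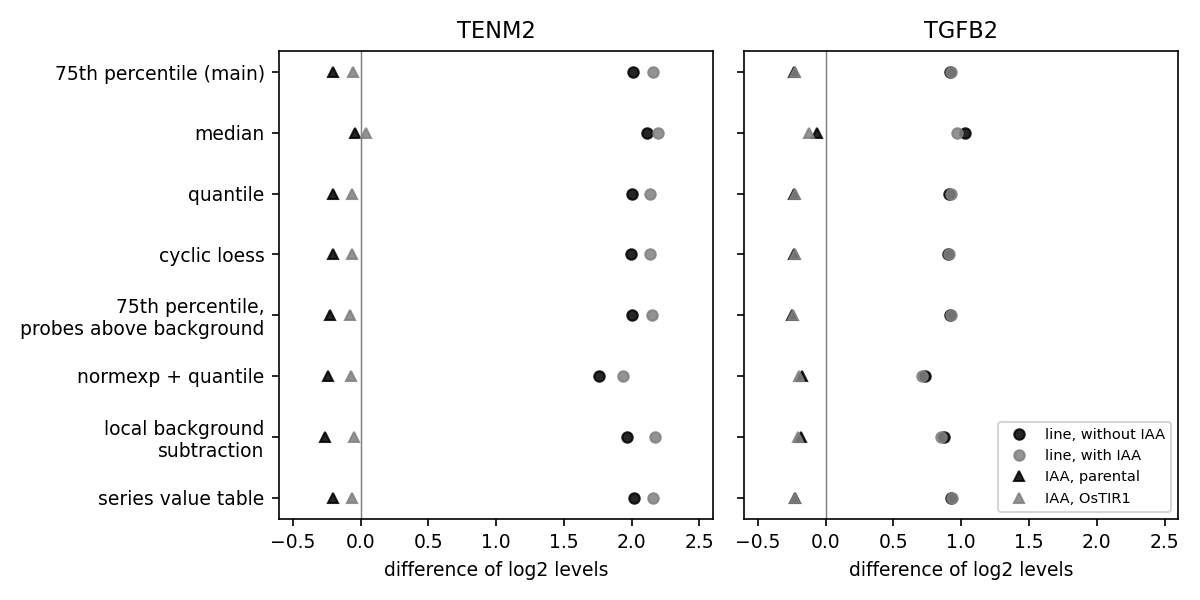
Line differences (circles) and IAA differences (triangles) of TENM2 (left) and TGFB2 (right) on the log2 scale under 8 ways of correcting and scaling the arrays. The line differences stay between 1.76 and 2.20 for TENM2 and between 0.71 and 1.03 for TGFB2, while the IAA difference of TENM2 in the OsTIR1 line passes 0 with median scaling.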

How the data were processed

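Cy3-labelled total RNA of 4 cultures was measured on one-colour arrays, per the labels. Per the file headers, Agilent Feature Extraction 10.5.1.1 made the deposited linear spot intensity by subtracting background and detrending each array, with no scaling between arrays. Flags for signal well above background come from the same files. The headers name galGal2 as the grid's build. Symbols came from a RefSeq table of GRCg7b through the accession (51 probes, 50 genes).

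Levels are log2 intensity relative to the 75th percentile of the same array. Where a gene has several probes the brightest was used. Nominal 95% intervals use the software's error of each spot. limma 3.58.1 in R 4.3.3 fitted line and IAA terms to 23100 probes (those flagged above background on 2 or more arrays), with Benjamini-Hochberg adjustment and a threshold of 0.05. It was run on simulated data with independent noise on each array, which cannot check the use of the lines as repeats. The deposited series table holds these intensities times a nearly constant factor per array (medians 4.40 to 4.63, every probe within 0.496% of its array's), with column medians of 65.6, 58.8, 60.5 and 55.9. Its scale and direction follow from that match, and the reason for the factors is unknown. The files hold the median and not the mean spot signal, so normexp (offset 50) and local subtraction used the median.

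The members, the lists and the rules were chosen with earlier results of these data known. Genes named are the 2 members, listed genes with a named probe, and the nearest profiles among named genes and unnamed probes, of which 1 is printed for each member; CHRM4 was named after its values were seen. The promoter search was not made, since no sequence was used here.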

Additional observations from a re-analysis of the deposited data

How the results depend on the processing

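Over median scaling, quantile normalization, cyclic loess, a 75th percentile over probes above background on all arrays, normexp, local background subtraction and the series table, the line and IAA differences of both genes moved by less than the half-width of their intervals. Median signal with local background subtracted and no scaling, an alternative added after the data were seen, did so too for the line differences. Median scaling moved the median IAA difference of all probes by 0.17 in parental DT40 and 0.10 in the OsTIR1 line, and the median line difference without IAA by 0.11. Under it the IAA effect of TENM2 over both lines changed sign to 0.00126 from -0.13, its IAA difference in the OsTIR1 line became 0.04, and over all alternatives that in parental DT40 ran from -0.26 to -0.04. The IAA differences of TGFB2 stayed below 0, from -0.25 to -0.07 in parental DT40 and from -0.24 to -0.12 in the OsTIR1 line. The fit called 109 probes for IAA with normexp and 8 with trend and robust estimation against 0 otherwise, neither gene among them. The prior degrees of freedom set the weight that limma gives to the variance shared over probes. They were infinite with normexp and 10.7 for both genes with trend and robust estimation, against 1.41 to 3.01 in the other fits. The cause of the calls was not tested. Adjusted p for IAA ranged from 0.914 to 1 for TENM2 and from 0.487 to 0.980 for TGFB2 over the 6 alternative fits. The labels give no replicate numbers, so no fit with a replicate block was made. Depth is not defined for arrays, and precision is limited by their number.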
